A study of Mus musculus with 7 samples.

Results

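Neutrophils circulating in the blood of mice with serum-transfer arthritis were compared with neutrophils from the blood of healthy mice in the same single-cell library. The cells were taken by their deposited hashtag condition (K/BxN blood or healthy blood) and by an assigned ImmGen reference type that starts with GN, the granulocyte types. This gave 814 arthritic and 509 healthy blood cells, 1323 of the 4856 cells of the inflammation library and of the 21763 cells of the whole series. A single blood cell of another type was left out.

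The arthritic cells came from male wild-type C57BL/6J mice aged 8 weeks. Each was injected intraperitoneally with 150 µl of serum from K/BxN mice on days 0 and 2, had an arthritis score above 10 on a scale that ends at 12 on day 6, and was bled by cardiac puncture on day 7. The labels give the same strain and sex for the library as a whole. The healthy mice received no serum, and their age is not analysed here. By the methods of the study each condition pooled blood from 3 mice, so that there was 1 pool per condition and no test between conditions could be made. Live cells that bore CD11b and Ly6G on their surface were sorted from both. The library also held joint neutrophils of arthritic mice (2857 cells), and healthy blood had been profiled in 2 earlier libraries of the series (runs 1 and 2). Healthy blood cells of the inflammation library carried a TotalSeq-C hashtag and arthritic blood cells a TotalSeq-A hashtag, so that hashtag chemistry and condition cannot be told apart.

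K/BxN serum carries antibodies against glucose-6-phosphate isomerase, which form immune complexes in the joints of recipient mice, and neutrophils are required for the arthritis that follows. Neutrophils are made in the bone marrow, where they load granules in a fixed order, and leave it as short-lived cells that shut down most granule genes before or soon after release. Inflammation speeds their production and release, and the circulating pool can then hold younger cells.

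The most abundant messages of the cells differed most in absolute terms. S100a8 and S100a9, the subunits of calprotectin, a calcium-binding alarmin stored in the neutrophil cytosol, made up 24.9% of all UMIs (unique molecular identifiers, each counting 1 captured RNA molecule) in arthritic blood and 13.8% in healthy blood. Genes of the stefin A cluster, which encode small inhibitors of cysteine proteases, summed to 0.486% and 0.205%. The neutrophil resistin-like gene Retnlg, the iron-chelating granule protein gene Lcn2 and Ly6g were also higher in arthritic blood, and the messages of ribosomal proteins and many low genes took a smaller share.

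Counts were summed over the cells of a condition and divided by the total to give counts per 1000000 UMIs (CPM). The arthritic pool held 2693248 UMIs and the healthy pool 1124877. Ratios are arthritic over healthy, and the 95% interval after a ratio is exact, conditional on the sum of the counts, and covers counting error only. Without replicates a gene is said to be past the fold when its ratio was at least 1.5 or at most 1 over 1.5. In such sums, fewer cells of a kind and less RNA per cell cannot be told apart. Shares add to a fixed total, and S100a8 and S100a9 alone took 24.9% of one and 13.8% of the other. The median of the 4921 genes with at least 50 counts over both pools lay at −0.37 on the log2 scale of CPM ratios. TMM scaling, which trims extreme genes before it sets the totals, added 0.46 to every log2 ratio and put the median at 0.09. By CPM, 122 genes (2.48%) were past the fold in the higher direction and 1387 (28.2%) in the lower one. By TMM the counts were 533 (10.8%) and 255 (5.18%). The higher share of the calls was thus 8.09% by CPM and 67.6% by TMM, and the main values are given by both scalings. Where a ratio of these 2 pools over all their cells is given by CPM alone, adding 0.46 to its log2 value gives the TMM ratio. For cells with 1000 UMIs or more the shift was 0.42. For arthritic blood over healthy blood of run 1 it was −0.05, and over run 2 −0.28. With the interval wholly past 1.5-fold, 34 genes were higher and 185 lower by CPM, and 128 and 14 by TMM. At 2-fold, 34 genes (0.691%) were higher and 310 (6.3%) lower by CPM, and 146 (2.97%) and 53 (1.08%) by TMM.

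**Figure D1:**
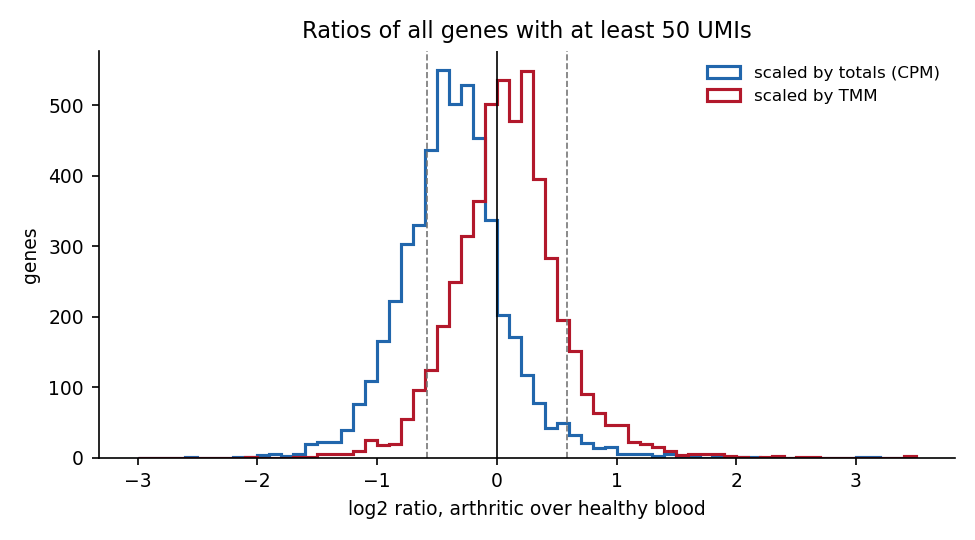
Log2 ratio of arthritic over healthy blood (horizontal axis) for the 4921 genes with at least 50 UMIs, as the number of genes in each bin of 0.1 (vertical axis), for CPM (blue) and TMM (red). Dashed lines mark 1.5-fold; the same distribution sits around a median of −0.37 by CPM and 0.09 by TMM.

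Both pools had the defining messages of neutrophils. All 15 markers on the neutrophil list were detected, and Csf3r, the receptor for the granulocyte growth factor G-CSF, had 8431 UMIs in the arthritic pool and 4563 in the healthy pool. Of the markers of other cells, all 9 natural killer genes were at 0 UMIs in both pools. Mpo and Elane, primary granule genes of neutrophil precursors, were at 0 as well, while Prtn3, another, had 6 and 2 UMIs. The erythroid list summed to 19 and 4 UMIs and the platelet list to 16 and 12. On the B cell list Ighm, the heavy chain of IgM, had 332 and 234 UMIs while Cd79b and Ms4a1 were at 0. On the T cell list Cd3d had 37 and 18 UMIs and Cd3g 19 and 9, with Cd3e, Trac and Cd4 at 0. The monocyte list summed to 336 CPM in arthritic and 283 CPM in healthy blood, of which Csf1r had 302 and 187 UMIs, Adgre1 103 and 50, and Ly6c2 492 and 75, while Ccr2 and F13a1 were at 0. On the eosinophil, mast cell and basophil list Siglecf had 21 and 15 UMIs, Ccr3 9 and 5, Kit 6 and 0, and Epx and Prg2 none. Across libraries, 1 of the 1588 cell barcodes of healthy blood run 1 was shared with the inflammation library and none of the barcodes of the other compared libraries.

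Depth differed between the pools. Arthritic cells had a median of 3580 UMIs and 1162 genes, and healthy cells 2527 UMIs and 1077 genes. Cells under 1000 UMIs were 140 of 814 in arthritic blood (17.2%, exact 95% interval 14.7 to 19.97) and 155 of 509 in healthy blood (30.5%, 26.5 to 34.7). Intervals of cell shares treat cells as independent draws and do not cover differences between mice or pools. These shallow cells held 3.27% and 8.53% of the UMIs and were much alike in both pools: S100a8 and S100a9 took 3.94% and 3.31% of their UMIs, the nuclear RNA Malat1 10.8% and 10.6%, and mitochondrially encoded genes 2.38% and 1.77%. In cells with 1000 UMIs or more, S100a8 and S100a9 took 25.6% and 14.8%, Malat1 1.98% and 2.28%, and mitochondrial genes 0.315% and 0.284%. By deposited ImmGen class, 89.3% of arthritic and 91.6% of healthy shallow cells were assigned to GN.UrAc.PC, a class of peritoneal neutrophils after urate crystals, against 0.89% and 1.98% of the deeper cells, while GN.Bl, the blood class, held 95.8% and 97.2% of the deeper cells. With only these deeper cells, 137 genes (2.78%) were higher and 1339 (27.2%) lower by CPM, and 524 (10.6%) and 308 (6.26%) by TMM.

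Of the S100 family, calcium-binding proteins that include the calprotectin subunits, 5 members had enough counts, and 2 of them were past the fold in the higher direction by CPM and 4 by TMM, with none lower, beside 2.48% and 10.8% of all genes higher (medians 0.53 and 0.99 log2, against −0.37 and 0.09 over all genes). S100a9 (chr3:90692632-90695721, GRCm38) stood at 137900 CPM in arthritic and 72550 CPM in healthy blood, a ratio of 1.90 (1.89 to 1.92) by CPM and 2.62 by TMM. S100a8 (chr3:90668978-90670035) stood at 110700 and 65490 CPM, a ratio of 1.69 (1.68 to 1.70) by CPM and 2.33 by TMM. Both subunits were therefore higher on either scale. S100a6, a calcium-binding gene of many cell types, stood at 12150 and 8405 CPM (ratio 1.45, TMM 1.99), and S100a11 at 8283 and 7496 CPM (1.10, TMM 1.52). S100a13 was at 60.2 and 75.6 CPM, below 1 by CPM (0.796) and above it by TMM (1.10).

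The other pools place these levels. Together S100a8 and S100a9 took 24.7% of UMIs in healthy blood run 1 and 18.1% in run 2, 16.0% in the arthritic joint, and 36.5% and 35.8% in the bone marrow of runs 1 and 2. For S100a9 alone, arthritic blood was above all 3 healthy pools (91710 and 69240 CPM in runs 1 and 2), and for S100a8 it was below both earlier ones (155500 and 112100 CPM). The sum in the arthritic pool therefore lay at the level of healthy run 1, and the healthy pool of the same library lay below both earlier healthy pools. Sums weigh deeper cells more. In run 1, 140 of the 1346 neutrophil-like cells kept formed a cluster with medians of 2297.5 UMIs and a 46.65% share. Over all cells kept the median share was 16.69% in run 1 and 16.62% in run 2. The median arthritic cell, at 23.2%, was above both, and the median healthy cell of the same library, at 9.26%, below both. In the arthritic joint the share of the pool was closer to that of healthy than of arthritic blood of the same library.

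**Figure D2:**
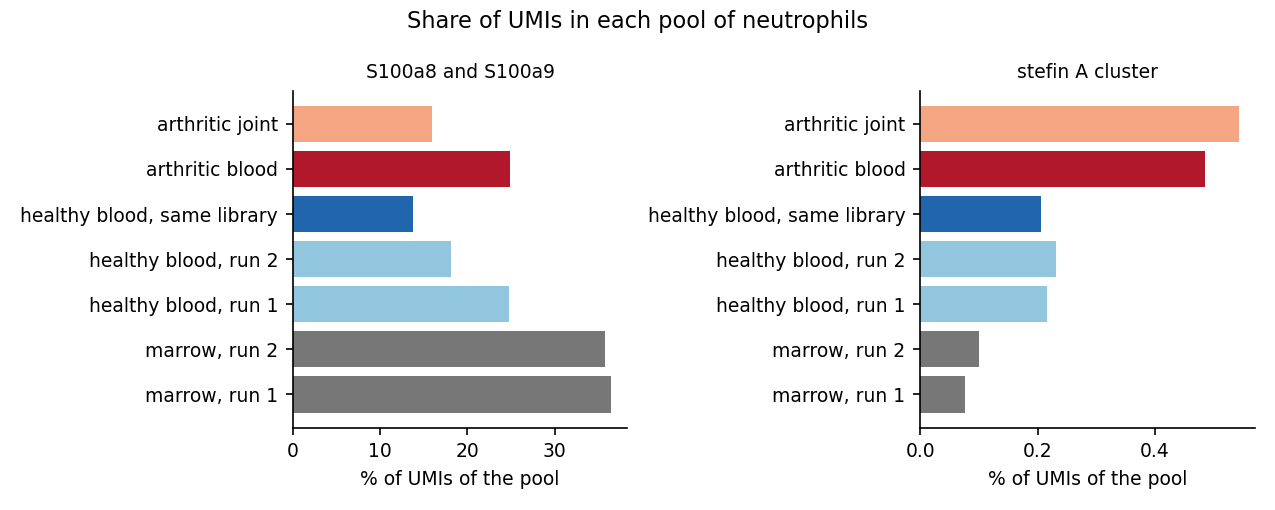
Percent of the UMIs of each neutrophil pool (horizontal axis, from 0) that fell on S100a8 and S100a9 (left) and on the 8 genes of the stefin A cluster (right); 1 bar per pool, with no error bar since each is 1 pool. Arthritic blood stands at 24.9% and 0.486%, healthy blood of the same library at 13.8% and 0.205%.

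Stfa1 and BC100530, both stefin A genes, had the largest ratios among genes whose interval lay wholly past 1.5-fold. The stefin A genes lie as 8 neighbours in one cluster of 298.6 kb on chromosome 16 (chr16:36156811-36455392, GRCm38): Stfa2l1, Gm5483, Gm5416, Stfa1, BC117090, BC100530, Stfa2 and Stfa3. Stfa1 stood at 419 CPM in arthritic blood and 47.1 CPM in healthy blood, a ratio of 8.90 (6.75 to 11.9) by CPM and 12.2 by TMM. It stood at 186 and 192 CPM in healthy blood of runs 1 and 2, so that the arthritic level was also above both of these. BC100530 stood at 297 and 34.7 CPM, a ratio of 8.56 (6.20 to 12.1) and 11.8 by TMM, and at 71.6 and 65.0 CPM in the earlier healthy pools. In these 2 genes the arthritic level exceeded all 3 healthy blood levels.

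Gm5483 and Stfa2l1 held most UMIs of the cluster. Gm5483 stood at 2252 and 959 CPM (ratio 2.35, 2.20 to 2.51, and 3.23 by TMM), and at 1023 and 1162 CPM in runs 1 and 2. Stfa2l1 stood at 1781 and 969 CPM (1.84, 1.72 to 1.97, and 2.53 by TMM), and at 752 and 836 CPM in runs 1 and 2. The 3 healthy pools lay close together for both genes, below arthritic blood. Among the low members, Gm5416 had a ratio of 2.75 (1.64 to 4.89), Stfa2 of 3.53 (1.89 to 7.32) and Stfa3 of 1.93 (1.17 to 3.37) by CPM, and 3.79, 4.86 and 2.66 by TMM, at 32.7 to 41.6 CPM in arthritic blood. BC117090 stayed under the minimum of 50 counts and enters the sum only. Thus all 7 members that could be measured were past the fold in the higher direction by CPM and by TMM, beside 2.48% and 10.8% of all genes. Stfa2 was an exception against run 1, where it stood at 73.8 CPM, above the arthritic 34.5 CPM.

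Summed over the cluster, the level was 4860 CPM in arthritic blood, 2052 CPM in healthy blood of the same library, and 2160 and 2310 CPM in runs 1 and 2 (ratio 2.37, 2.27 to 2.48, by CPM, and 3.26 by TMM). It was 5430 CPM in the arthritic joint, 5027 CPM in lung and 4251 CPM in peritoneum after interleukin-1β, and 765 and 1001 CPM in bone marrow. Arthritic blood was thus nearer to the inflamed tissues of the library than to any healthy blood pool. In cells with 1000 UMIs or more the ratio was 2.29, and in shallower cells 1.62 (1.17 to 2.26).

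The members of this cluster share much of their sequence, both at the end of the transcript that the assay reads and before their start sites. Over the last 300 bases of the longest coding transcript (GENCODE), the 28 pairs were 76.3% to 98.7% identical. Stfa1 and BC100530 were the most alike pair at 98.67%, BC117090 was 97.49% and 97.85% identical to these, and Stfa2 and Stfa2l1 stood at 96.46%, so the split of reads among such genes is uncertain. BC117090 itself had 4 UMIs in arthritic and 0 in healthy blood. Stfa1 with BC100530 stood at 716 and 81.8 CPM (ratio 8.75, 7.10 to 10.9, and 12.1 by TMM) against 257 CPM in each earlier healthy pool, with BC117090 added the ratio was 8.77, and Stfa2 with Stfa2l1 at 1816 and 979 CPM (1.86 by CPM, 2.55 by TMM). Since the members differed in the same direction, the 250 bases before the start of 7 of the 8 genes (RefSeq, GRCm38.p6) were compared. By GENCODE the genes Stfa1, BC100530 and Stfa2 start further upstream, and 197, 178 and 94 of these 250 bases lie inside them. The 7 sequences were 72.8% to 96.1% identical over 21 pairs. The promoters of the pair with the largest ratios and of the pair that held most UMIs are shown 5′ to 3′ on the strand of the gene, with capitals on the longest run of letters that all 7 share.
Stfa1, chr16:36276898-36277147, plus strand: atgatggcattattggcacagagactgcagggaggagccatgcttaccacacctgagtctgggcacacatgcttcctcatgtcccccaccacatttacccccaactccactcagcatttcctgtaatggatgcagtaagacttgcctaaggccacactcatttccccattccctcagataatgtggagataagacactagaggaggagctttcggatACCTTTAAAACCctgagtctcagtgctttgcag
BC100530, chr16:36367571-36367820, minus strand: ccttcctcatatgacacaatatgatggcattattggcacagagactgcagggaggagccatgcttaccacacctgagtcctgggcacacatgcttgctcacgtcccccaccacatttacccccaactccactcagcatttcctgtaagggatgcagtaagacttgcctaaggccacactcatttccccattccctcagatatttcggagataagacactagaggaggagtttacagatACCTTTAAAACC
Gm5483, chr16:36183962-36184211, plus strand: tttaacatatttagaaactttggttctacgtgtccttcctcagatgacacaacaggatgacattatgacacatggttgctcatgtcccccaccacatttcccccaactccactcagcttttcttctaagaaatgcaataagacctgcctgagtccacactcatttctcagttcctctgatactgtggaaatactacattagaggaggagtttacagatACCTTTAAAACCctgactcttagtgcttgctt
Stfa2l1, chr16:36156561-36156810, plus strand: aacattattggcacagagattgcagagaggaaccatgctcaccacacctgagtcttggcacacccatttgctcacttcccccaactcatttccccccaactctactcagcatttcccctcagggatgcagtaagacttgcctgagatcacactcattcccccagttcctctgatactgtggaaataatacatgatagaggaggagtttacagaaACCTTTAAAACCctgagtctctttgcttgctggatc

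The shared run, ACCTTTAAAACC, stood in 7 of 7 stefin A promoters and in 11 of the 32851 promoters of the table (0.033%, both strands), these 7 among them. It was chosen because the 7 share it, so its rarity elsewhere is a description of related sequences. Of common motifs, also searched on both strands, CCAAT stood in 5 of 7 (33.9% of all promoters), TTNNGCAA, a form bound by C/EBP factors, in 3 of 7 (9.56%), and TATAAA in 0 of 7 (12.4%). The shared run holds none of the other motifs on either strand. It began 12 to 80 bases before the start sites.

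Other antiprotease genes did not share one direction. With the stefins, the list of antiproteases had 11 members with enough counts, of which 8 were past the fold in the higher direction by CPM and 8 by TMM, and 1 in the lower one by CPM and none by TMM (medians 1.17 and 1.63 log2). Over all genes 2.48% were higher by CPM and 10.8% by TMM. The sum of the list, 14340 CPM in arthritic and 10130 CPM in healthy blood, was below the 15820 and 19720 CPM of runs 1 and 2. Wfdc17, a whey acidic protein family member, stood at 1864 and 768 CPM (2.43, 2.26 to 2.61, and 3.34 by TMM), and Wfdc21 of the same family at 2386 and 1059 CPM (2.25, 2.12 to 2.40, and 3.10 by TMM). In the earlier healthy pools Wfdc17 stood at 1175 and 5297 CPM in runs 1 and 2, and Wfdc21 at 3960 and 2710 CPM, so that only the healthy pool of the same library was below arthritic blood for both genes. Slpi, an inhibitor of neutrophil elastase, stood at 4250 and 4697 CPM, below 1 by CPM (0.905) and above it by TMM (1.25). The secreted cystatin Cst3 was lower on both scales, at 879 and 1388 CPM (0.633 by CPM, 0.872 by TMM).

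Some secondary granule genes, normally switched on in marrow, were higher than in healthy blood of the same library. Of 11 members with enough counts, 5 were past the fold in the higher direction and 2 in the lower one by CPM, and 9 and 0 by TMM. All genes had 2.48% and 28.2% by CPM and 10.8% and 5.18% by TMM (medians of the list 0.43 and 0.89 log2). Among the 5 higher by CPM are BC100530 of the stefins and the glucokinase gene Adpgk. The summed level, 11060 CPM in arthritic and 7908 CPM in healthy blood, was below the 41050 and 15360 CPM of runs 1 and 2, so that the direction of the sum turned with the comparison pool. The earlier pools kept clusters led by Camp, Ngp and Ltf, of 140 cells in run 1 and 53 in run 2. Their median depth was 2297.5 and 2852 UMIs, against 790 and 818.5 over all cells kept, so each such cell weighs more in the sum. The sums without them were not made. Lcn2, which binds bacterial siderophores, stood at 2195 and 813 CPM (2.70, 2.52 to 2.90, and 3.72 by TMM), and at 2864 and 1359 CPM in runs 1 and 2. Ngp, the neutrophilic granule protein, stood at 64.6 and 17.8 CPM (3.63, 2.28 to 6.10, and 5.00 by TMM). Those are low levels, as the earlier healthy pools held 7223 and 1613 CPM and marrow 42800 and 33400 CPM. Camp and Ltf, which encode cathelicidin and lactoferrin, were nearly absent, with 6 and 5 UMIs in arthritic blood and 7 and 2 in healthy blood. Adpgk, a glucokinase that uses ADP, had a ratio of 2.45 (1.378 to 4.671) by CPM and 3.37 by TMM. Cd177, a surface partner of proteinase 3, had 1.54 (1.125 to 2.157) by CPM and 2.13 by TMM. The lysozyme gene Lyz2 (1.34), the haptoglobin gene Hp (1.18) and the peptidoglycan-binding gene Pglyrp1 (1.09) were short of the fold by CPM, and had 1.85, 1.63 and 1.51 by TMM. Cybb, the catalytic subunit of the oxidative burst, and the adhesion gene Ceacam1 were lower, at ratios of 0.525 and 0.552 by CPM and 0.723 and 0.760 by TMM.

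Retnlg and Ly6g, both abundant in marrow neutrophils, were higher as well. Of the 12 measured members of the list of resistin-like and marrow-associated membrane genes, 5 were past the fold in the higher direction and 1 in the lower one by CPM, and 10 and 0 by TMM, again beside 2.48% and 28.2% of all genes by CPM and 10.8% and 5.18% by TMM (medians 0.25 and 0.71 log2). Retnlg, a resistin-like gene, stood at 15850 and 6806 CPM (2.33, 2.27 to 2.39, and 3.21 by TMM), but at 17470 and 16290 CPM in healthy runs 1 and 2. Arthritic blood was thus near the earlier healthy pools, and the healthy pool of the library below them. Ly6g, whose protein was the sorting marker, stood at 219 and 53.3 CPM (4.11, 3.15 to 5.46, and 5.66 by TMM), and at 401 and 156 CPM in runs 1 and 2. The others past the fold were Prr13 (1.60 by CPM, 2.21 by TMM), Lgals3, the galectin-3 gene (1.53 by CPM, 2.11 by TMM), and Cd177. Cebpe, the transcription factor that turns on secondary granule genes, stood at 24.5 and 42.7 CPM (0.574 by CPM, 0.791 by TMM). Within the Ly6 family of surface proteins, Ly6c2 had a ratio of 2.74 (2.15 to 3.54, and 3.77 by TMM) and Ly6e of 0.851 by CPM and 1.17 by TMM.

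**Figure D3:**
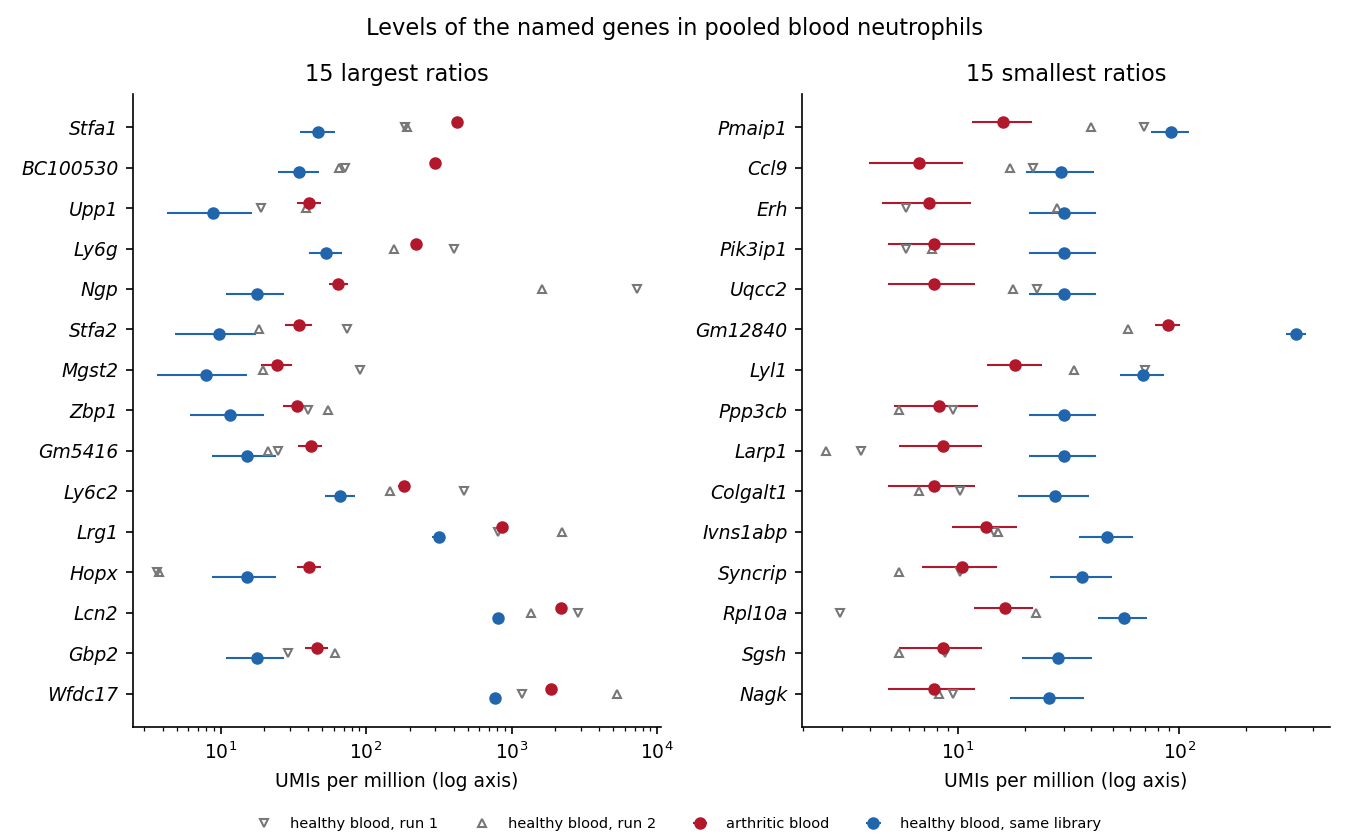
CPM (horizontal log axis) of the 15 genes with the largest and the 15 with the smallest CPM ratio among genes whose interval lay wholly past 1.5-fold. Filled points are arthritic (red) and healthy blood (blue) of the same library with exact 95% Poisson intervals, and open triangles are healthy blood of runs 1 and 2 (none where a run had no count). Stfa1 and BC100530 stand above all 3 healthy pools, and Ngp and Ly6c2 between or below them.

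Few cells were assigned to marrow types. The deposited types put 22 of 814 arthritic cells (2.70%, exact 95% interval 1.70 to 4.06) in the ImmGen class GN.Arth.BM, named for bone marrow granulocytes in arthritis, and 3 of 509 healthy cells (0.589%, 0.122 to 1.71). Among cells with 1000 UMIs or more the shares were 3.26% and 0.847%. The intervals again leave out differences between mice or pools. The types are assigned from the same counts, so what follows describes those cells and tests nothing. They held 4.35% of the arthritic UMIs but 33.3% of those of Ngp, 32.3% of BC100530, 13.7% of Ly6g and 10.7% of Lcn2. Inside the class BC100530 stood at 2203 CPM and outside it at 210 CPM, and Stfa1 at 1281 and 380 CPM. Leaving the class out of both pools left ratios of 8.01 for Stfa1, 6.02 for BC100530, 2.20 for Retnlg, and 1.66 and 1.87 for S100a8 and S100a9. For Ngp the ratio became 7.19, since 13 of the 20 Ngp UMIs of healthy blood were in its 3 cells of the class.

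The remaining leading genes had mixed roles. Upp1, which splits uridine, stood at 40.8 and 8.89 CPM (4.59, 2.41 to 9.85, and 6.33 by TMM), and Mgst2, which can make leukotriene C4, at 24.5 and 8.00 CPM (3.06 by CPM, 4.22 by TMM). Lrg1, a secreted glycoprotein of neutrophil granules, stood at 854 and 316 CPM (2.71, 2.42 to 3.03, and 3.72 by TMM), and at 813 and 2229 CPM in runs 1 and 2. Hopx, an atypical homeobox gene, stood at 40.8 and 15.1 CPM (2.70 by CPM, 3.72 by TMM) and 3.65 and 3.81 CPM in the earlier healthy pools. Hopx was thus above all healthy blood, while Lrg1 lay between runs 1 and 2.

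The summed level of type I interferon genes was near equal by CPM and higher by TMM. Of 41 measured members of the type I interferon list, 6 were past the fold in the higher direction and none in the lower one by CPM, and 19 and 0 by TMM. Over all genes the higher shares were 2.48% and 10.8%. The medians of the list were 0.09 and 0.56 log2, above those of all genes (−0.37 and 0.09). Their summed level was 5534 CPM in arthritic and 5491 CPM in healthy blood (1.01 by CPM, 1.39 by TMM), and 8512 and 6415 CPM in runs 1 and 2. The 6 genes were low ones, among them Zbp1, a sensor of Z-form nucleic acid (33.4 and 11.6 CPM, 2.89 by CPM, 3.98 by TMM), Oasl1, a brake on Irf7 translation (54.2 and 28.4 CPM, 1.91 by CPM, 2.62 by TMM), Ifit1 (47.5 and 29.3 CPM, 1.62 by CPM, 2.23 by TMM) and Usp18 (26.7 and 16.0 CPM, 1.67 by CPM with an interval of 0.986 to 2.98 that crosses 1, 2.30 by TMM). The other members past the fold by CPM were Herc6 (1.587, 0.887 to 3.018) and Eif2ak2 (1.517, 0.902 to 2.67), whose intervals also cross 1. Against the earlier healthy pools Zbp1, Ifit1 and Usp18 were not higher, at 40.2, 97.2 and 43.1 CPM in run 1. Gbp2, a GTPase induced by interferon-γ, was the only one of 7 of its list past the fold by CPM (45.7 and 17.8 CPM, 2.57 by CPM, 3.54 by TMM), whereas 4 of 7 were higher by TMM and none lower on either scale.

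The Ifitm genes, which encode membrane proteins that block viral entry, were higher as a group: 3 of 4 were past the fold by CPM and 4 of 4 by TMM, beside 2.48% and 10.8% of all genes (medians 0.75 and 1.21 log2). Ifitm1 stood at 1917 and 1091 CPM (1.76, 1.65 to 1.87), Ifitm3 at 1346 and 789 CPM (1.71, 1.58 to 1.84) and Ifitm6 at 250 and 151 CPM (1.66, 1.40 to 1.97), while Ifitm2 had a ratio of 1.39. By TMM the 4 ratios were 2.42, 2.35, 2.28 and 1.91. All of these were lower than in healthy run 2, where they stood at 3336, 2225, 553 and 6679 CPM. Taking run 2 as the comparison pool thus turned their direction.

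Receptors and cytokines were mostly short of the fold. Of 12 measured chemoattractant receptors, none was higher and 1 lower by CPM, and 1 was higher and none lower by TMM. The lower share by CPM was under the 28.2% of all genes, and the higher share by TMM was near 10.8%. Cxcr2, which guides neutrophils out of marrow and into tissue, stood at 1770 and 1988 CPM (0.890 by CPM, 1.23 by TMM), and Cxcr4, which retains or recalls them to marrow, at 698 and 1037 CPM (0.673 by CPM, 0.926 by TMM). Of 19 cytokine receptors, 1 was higher and 2 lower by CPM and 2 and 0 by TMM, shares near or below those of all genes apart from the single higher gene by CPM. That gene was Csf2rb2 (27.5 and 10.7 CPM, 2.58 by CPM, 3.55 by TMM), uncertain beside its close paralog Csf2rb, and Csf3r stood at 3130 and 4056 CPM (0.772 by CPM, 1.06 by TMM). Against the earlier healthy pools the CPM ratios of Cxcr2, Cxcr4 and Csf3r lay above 1, since Cxcr2 stood at 923 and 1305 CPM in runs 1 and 2, Cxcr4 at 328 and 345 CPM and Csf3r at 1440 and 1676 CPM. Il1b stood at 3784 and 3869 CPM (0.978, 0.944 to 1.01, and 1.35 by TMM) and Tgfb1 at 0.527 (TMM 0.726). Of 7 chemokine genes, none was higher on either scale and 3 were lower by CPM and 1 by TMM, beside 28.2% and 5.18% of all genes. The 3 were Ccl4 (0.571), Cxcl3 (0.654) and Ccl9 (0.228), with TMM ratios of 0.786, 0.900 and 0.314. Ccl6 was short of the fold, at 0.899 by CPM and 1.24 by TMM. Ccl6 and Il1b therefore lay on either side of 1 depending on the scaling, and Ccl4, Ccl9 and Tgfb1 did not. Cxcl3 crossed 1 by TMM in cells with 1000 UMIs or more (1.095).

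The gene with the smallest ratio was Pmaip1, whose product NOXA neutralises the survival protein MCL1. It stood at 16.0 CPM in arthritic and 91.6 CPM in healthy blood (0.174, 0.119 to 0.251, and 0.240 by TMM), and at 69.4 and 40.0 CPM in runs 1 and 2, so that arthritic blood was below all 3. Mcl1 itself stood at 2455 and 2409 CPM (1.02 by CPM, 1.40 by TMM). Of the 21 measured genes of survival and apoptosis, none was higher and 7 lower by CPM, and 4 were higher and 1 lower by TMM, beside 28.2% of all genes lower by CPM and 10.8% higher and 5.18% lower by TMM. A share lower near that of all genes is no result about the list. Irak1, a kinase below Toll-like receptors, was lower at 24.1 and 67.6 CPM (0.357 by CPM, 0.492 by TMM). Among integrins, Itga4, the VLA-4 chain, stood at 234 and 437 CPM (0.536 by CPM, 0.738 by TMM) and Itgax at 39.0 and 80.9 CPM (0.482 by CPM, 0.663 by TMM). The immediate early genes Jun (0.492 by CPM, 0.677 by TMM) and Nr4a1 (0.494 by CPM, 0.680 by TMM) were also lower on both scales. Of the 23 measured AP-1 and immediate early genes, none was higher and 2 lower by CPM, and 3 and 0 by TMM. The lower shares were under the 28.2% and 5.18% of all genes, and the higher share by TMM was near 10.8%. By CPM the levels of Irak1, Itga4, Itgax and Nr4a1 in arthritic blood nevertheless lay above those in both earlier healthy pools, so that the direction turned with the comparison pool. For Nr4a1 the CPM ratio over run 2 was 1.07, which the TMM shift of −0.28 log2 takes below 1.

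The other genes with the smallest ratios did not come from a single list. Lyl1, a transcription factor of blood progenitors, stood at 18.2 and 68.5 CPM (0.266 by CPM, 0.366 by TMM), and was at 70.1 and 33.3 CPM in runs 1 and 2. Gm12840 stood at 88.7 and 337 CPM (0.263 by CPM, 0.363 by TMM), had no count in run 1 and stood at 58.4 CPM in run 2. Erh, Pik3ip1, Uqcc2, Ppp3cb, Larp1, Colgalt1, Ivns1abp, Syncrip, Sgsh and Nagk stood at 7.43 to 13.4 CPM in arthritic blood, with CPM ratios of 0.246 to 0.302. Several of these rest on few UMIs, and by CPM Pik3ip1, Larp1 and Syncrip were not lower against either earlier healthy pool. The TMM shifts take Pik3ip1 over run 2 and Syncrip over run 1, both at 1.02 by CPM, below 1, but not Larp1.

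Messages of cytosolic ribosomal proteins took 38940 CPM of the arthritic and 54330 CPM of the healthy pool (0.717, 0.710 to 0.724), and nearly equal levels by TMM (0.987). Of 84 measured members, none was higher and 43 lower by CPM, and 0 and 7 by TMM, beside 28.2% and 5.18% of all genes lower (medians −0.60 and −0.14 log2, both below those of all genes). Rps28 stood at 156 and 379 CPM (0.411 by CPM, 0.566 by TMM) and Rpl10a at 16.3 and 56.0 CPM (0.292 by CPM, 0.402 by TMM). Rps9 stood at 2999 and 3087 CPM (0.972 by CPM, 1.34 by TMM). Reads of single ribosomal protein genes can also match processed pseudogenes, so their values are uncertain. Ribosomal protein levels in run 1 and run 2 were 21510 and 50110 CPM, a span that holds the arthritic level. Nuclear genes of the respiratory chain had 0 of 68 higher and 15 lower by CPM, and 2 and 3 by TMM, a share lower that did not exceed the 28.2% and 5.18% of all genes. Chaperones had 0 of 15 higher and 5 lower by CPM, and 1 and 1 by TMM, also near the shares of all genes, with Pdia6 of the endoplasmic reticulum at 0.348 (TMM 0.479).

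The lists of glycolysis, actin and metalloproteinase genes each held 1 gene past the fold in the higher direction by CPM, and 8, 5 and 3 by TMM, out of 22, 35 and 8 measured, beside 2.48% and 10.8% of all genes. Gapdh stood at 1103 and 615 CPM (1.79, 1.65 to 1.95, and 2.47 by TMM), with 751 CPM in run 2 and no count in run 1. Of 22 glycolysis and hypoxia genes, Gapdh was the 1 higher and the hexokinase gene Hk2 the 1 lower by CPM (0.527), and 8 and 0 were by TMM, beside 2.48% and 28.2% of all genes by CPM and 10.8% and 5.18% by TMM. Of 35 actin and motility genes, the intermediate filament gene Vim was the 1 past the fold by CPM (554 and 369 CPM, a ratio of 1.502), and 5 were by TMM, with none lower. Those higher shares of the actin list were near those of all genes. Timp2, an inhibitor of metalloproteinases, stood at 283 and 150 CPM (1.88, 1.59 to 2.23, and 2.59 by TMM), whereas Mmp8 had 1.26 and Mmp9 0.886 by CPM (TMM 1.74 and 1.22). Prdx5, a peroxiredoxin, had a ratio of 1.64 (TMM 2.25). Of 12 granulopoiesis factors, Max was the 1 higher by CPM (1.65 by CPM, 2.27 by TMM) and Cebpe the 1 lower, and 4 were higher and none lower by TMM, beside 10.8% and 5.18% of all genes. Cebpb, which drives emergency granulopoiesis, stood at 1666 and 1126 CPM (1.48 by CPM, 2.04 by TMM).

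**Figure D4:**
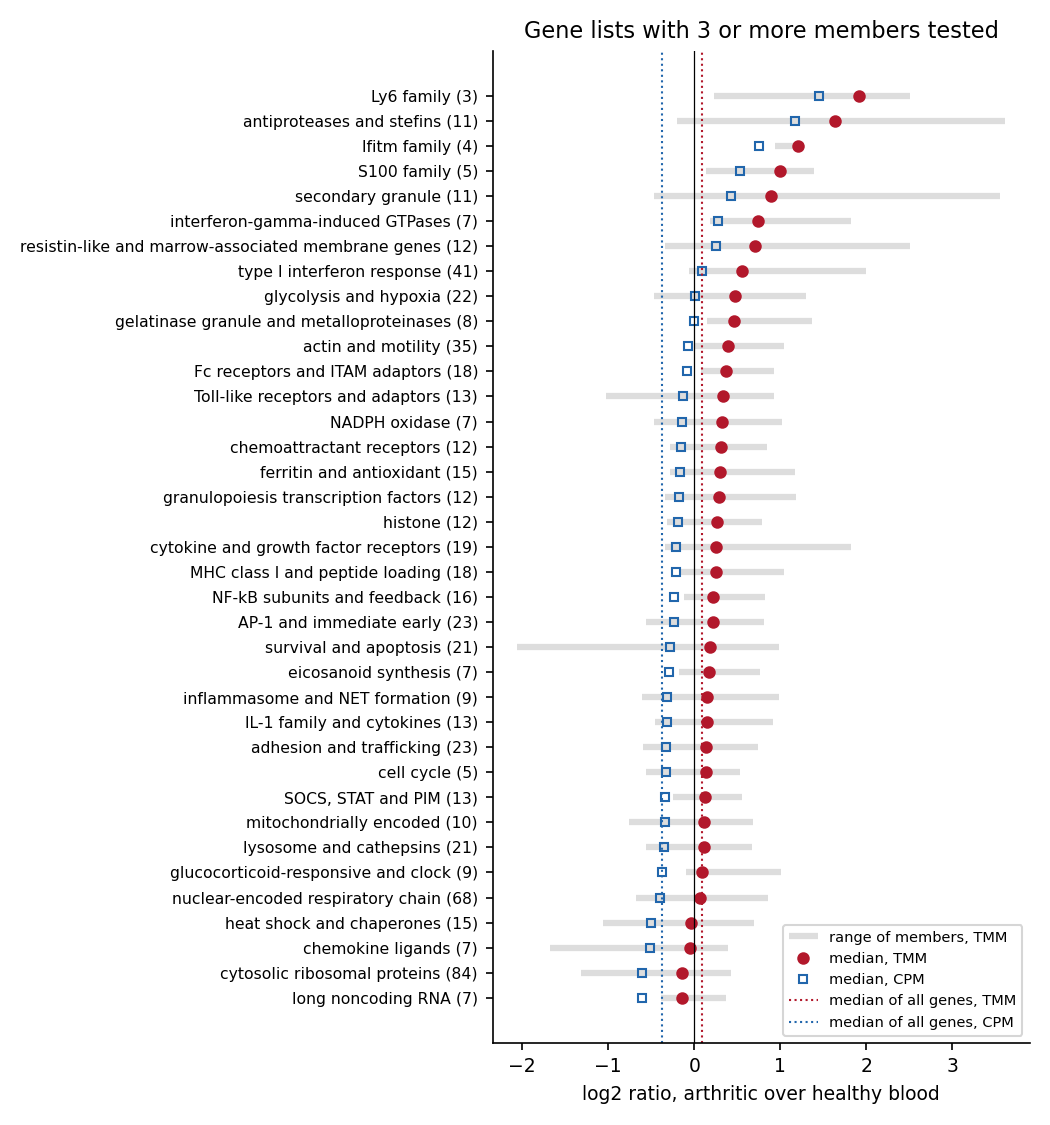
Median log2 ratio (horizontal axis, arthritic over healthy blood) of each gene list other than the cell type markers with 3 or more measured members (number in parentheses), by TMM (red) and CPM (blue squares), with the range of its members by TMM (grey bars) and the medians of all 4921 genes (dotted lines). Ly6, antiprotease, Ifitm, S100 and secondary granule lists have the highest medians of those plotted, and noncoding RNA and ribosomal protein lists the lowest.

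To see how the differences were spread over cells, each cell was thinned to 1000 UMIs, which left out 140 arthritic and 155 healthy cells and kept 674 and 354. S100a8 and S100a9 shifted in the bulk of the cells: their median share was 24.9% in arthritic and 13.7% in healthy cells (23.2% and 9.26% in all cells unthinned), and 62.5% of arthritic cells lay above the 90th percentile of healthy cells. Retnlg had medians of 1.1% and 0.4% (0.896% and 0.264% unthinned), with 28.6% of arthritic cells above that percentile. The stefin A cluster differed mainly in the upper part of its distribution, where the 75th percentile was 0.7% against 0.2% and the 90th 1.3% against 0.6%. Of the arthritic stefin A UMIs 45.6% were in the top 10% of cells, compared with 15.005% for S100a8 and S100a9 and 93.6% for Stfa1 with BC100530. The same shares were 58.0%, 19.6% and 100% in healthy blood. Where few cells hold any UMI, as for Stfa1 with BC100530, the top cells hold nearly all by construction, so these shares are not compared between the pools.

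The other groups measured were compared between cells high and low in stefin A. The 170 arthritic cells above 0.6% stefin A had a median S100a8 and S100a9 share of 26.7%, and the other 504 cells 24.4%, while Retnlg stood at 1.4% and 1.0% and the type I interferon list at 0.4% in both. By their means, the interferon list stood at 0.487% and 0.562% and Retnlg at 1.84% and 1.33%. In healthy blood the 35 cells above the same limit had a mean S100a8 and S100a9 share of 15.5% and the rest 13.7%, and a mean of the interferon list of 0.334% and 0.562%. Arthritic cells low in stefin A, with a mean of 23.7%, thus had more S100a8 and S100a9 than healthy cells high in it. Ribosomal protein messages had a median of 3.9% in arthritic and 5.8% in healthy thinned cells (3.603% and 4.66% unthinned). At equal depth an arthritic cell held a median of 467 genes and a healthy cell 545.

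**Figure D5:**
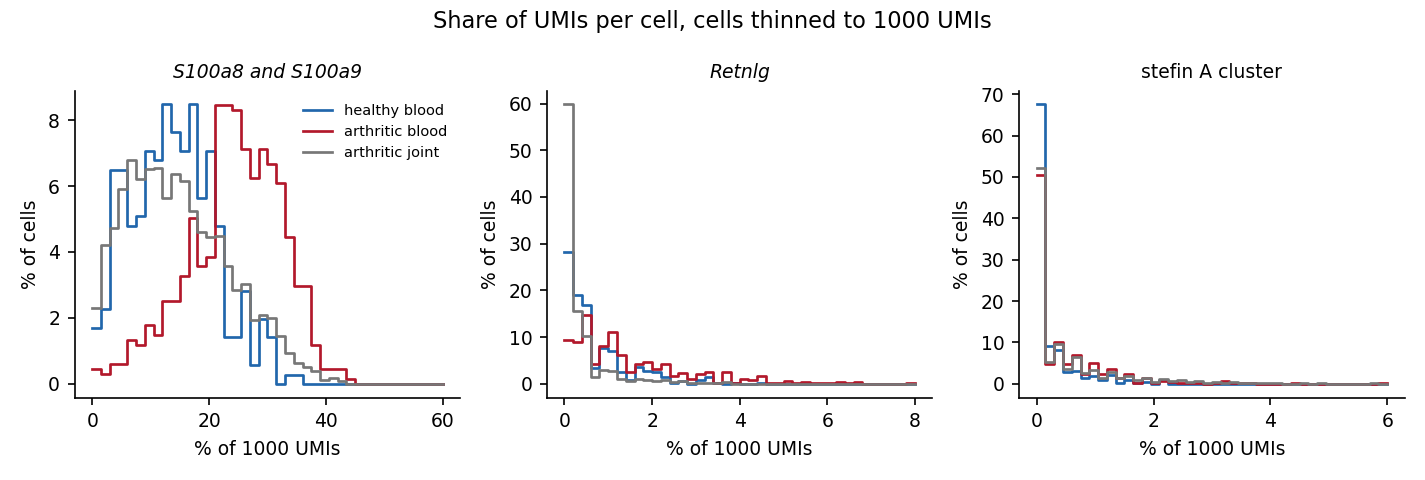
Percent of cells (vertical axis) by the percent of 1000 UMIs (horizontal axis) that fell on S100a8 and S100a9, Retnlg or the stefin A cluster, in 354 healthy blood (blue), 674 arthritic blood (red) and 2734 arthritic joint cells (grey); the last bin also holds larger values. The S100 distribution of arthritic blood is shifted as a whole, with a median of 24.9% against 13.7%, while stefin A differs in its upper tail.

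The healthy pools of the earlier libraries lay far apart among themselves. By the methods of the study, run 1 used mice aged 6 weeks and run 2 mice aged 8 weeks, with different versions of Cell Ranger, so that age and software differ between them as well. Run 2 over run 1, by TMM and with 4699 genes, had 17.1% of genes past 1.5-fold in the higher and 9.09% in the lower direction. On the 4354 genes measured in both comparisons these shares were 16.9% and 7.33%, against 11.1% and 3.9% for arthritic over healthy blood. The healthy pool of the inflammation library differed from run 2 in 17.8% and 34.6% of genes, and from run 1 in 27.9% and 23.9%. Those libraries were made with other kit and software versions and held shallower cells, with medians of 790 and 818.5 UMIs in the neutrophil-like cells kept. Of the 122 genes past the fold in the higher direction by CPM, 71 (58.2%) were above all 3 healthy blood pools, compared with 8.96% of all genes. Of the 1387 in the lower direction, 375 (27.0%) were below all 3, compared with 21.6% of all genes. Both shares use the healthy pool that defined the direction, so only the 2 earlier pools bear on them.

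Genes that healthy marrow expresses more than blood made up a larger share of the genes higher in arthritic blood, a difference that was not tested. Of the genes with counts in the marrow and blood of both healthy runs, 11.3% were at least 1.5-fold higher in marrow in both, by TMM. The share was 37.7% (43 of 114) among genes past the fold in the higher direction by CPM, 22.2% (113 of 510) by TMM, and 12.6% (30 of 239) among genes lower by TMM. Genes higher in blood than in marrow were not much rarer than the 21.5% of all genes. They made up 19.3% (22 of 114) of the genes higher by CPM, 19.8% (101 of 510) by TMM, and 19.7% (47 of 239) of those lower by TMM. Lcn2, Ly6g, Ngp and Ly6c2 were among those higher in marrow, whereas Stfa1, Gm5483 and Stfa2l1 stood below their blood levels in marrow. Cebpe and Cybb were also higher in marrow in both runs, but lower in arthritic than in healthy blood of the same library. Other stefins went otherwise: Stfa3 was higher in marrow than in blood in both runs (1.97 and 2.54 by TMM), and BC100530 was at 0.648 in run 1 and 1.98 in run 2.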

How the data were processed

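Neutrophils were profiled by droplet single-cell RNA-seq with UMIs. Per the methods of the study, the authors aligned reads to mm10 with Cell Ranger (3.0.2 for the inflammation library), assigned its 5 conditions by hashtag, kept hashtag singlets and gave each cell an ImmGen type; the deposited values are raw UMI counts per gene and cell. The deposited cell annotation also holds a G2M score that the authors computed per cell, which no result here uses. No further doublet caller or cell filter was applied.

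Counts were summed over the GN cells of each condition, scaled to CPM, and scaled by TMM (edgeR 4.0.16, R 4.3.3) as an alternative. Genes with at least 50 counts over both pools were compared. Intervals of ratios and shares are exact 95% intervals (scipy 1.17.1). Those of ratios were run on simulated independent Poisson counts, the model that they assume. That run does not show how they cover counts clustered in few cells, and intervals of shares were not simulated. No edgeR test was run since there was 1 pool per condition. Depth was 2693248 UMIs in the arthritic and 1124877 in the healthy pool. The earlier healthy libraries came with no cell types: their cells were clustered (scanpy 1.11.5, leidenalg 0.10.2, 2000 variable genes, 30 principal components, 15 neighbours, resolution 2) and neutrophil-like clusters kept by the fixed markers, with a threshold chosen after the clusters were seen. Named genes were the 15 with the largest and the 15 with the smallest CPM ratio among those with an interval wholly past 1.5-fold, and in each list up to 5 of the most abundant members and any member past 1.5-fold; the other genes of the stefin A cluster were added as neighbours. The members and the 48 gene lists were chosen with earlier results of these data known. Positions are from GENCODE vM21 (GRCm38), and sequences were aligned with Biopython 1.88. Alternatives were other scalings, cell filters, thinning, minimum counts, folds and comparison pools.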

Additional observations from a re-analysis of the deposited data

How the results depend on the processing

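The counts of genes past 1.5-fold, 122 higher and 1387 lower by CPM, depended on the scaling and on the genes admitted. They were 533 and 255 by TMM, 398 and 374 by median-of-ratios size factors, 245 and 646 with the 20 most abundant genes left out of the totals, 381 and 2767 with a minimum of 10 counts, 56 and 383 with a minimum of 200, and 34 and 310 with 2-fold in place of 1.5-fold. Cells thinned to 1000 UMIs gave 303 higher genes. Quality filters on cells, totals without haemoglobin and mitochondrial genes, and a mean over cells of each cell's shares kept both counts within 1.5 times. Settings chosen after seeing the data were cells with 1000 UMIs or more, which gave 524 and 308 by TMM, and both pools without the class GN.Arth.BM, which gave 127 and 1311 by CPM. The minimum of counts limits low genes most, since a gene with 50 counts has a wide interval.

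With healthy blood of run 1 or run 2 as the comparison pool the counts by CPM were 1645 and 760, or 1880 and 778. Genes at 0 in that run, also for want of an entry, were counted as higher. Of the 69 named genes past 1.5-fold by CPM, 65 had counts in run 1 and 69 in run 2, and 30 and 33 of these then changed direction. Of the 22 named genes short of 1.5-fold, 11 also crossed 1 against each run, among them Cxcr2, Cxcr4, Csf3r, Hp, Pglyrp1, Mmp9 and S100a11 against both, Lyz2, Mmp8 and Il1b against run 1, and Cebpb and Ifitm2 against run 2. The values that follow are for the genes past 1.5-fold. Against run 1 the ratio went below 1 for Stfa2 (0.468), S100a8 (0.712), Retnlg (0.907), Lcn2 (0.767), Ngp (0.00894), Ly6g (0.547), Ly6c2 (0.388), Wfdc21 (0.603), Mgst2 (0.271), Zbp1 (0.832), Cd177 (0.269), Adpgk (0.162), Ifitm3 (0.660), Ifitm6 (0.220), Ifit1 (0.489), Usp18 (0.620), Prdx5 (0.594), Prr13 (0.675) and Lgals3 (0.697). It went above 1 for Ccl4 (7.32), Rps28 (2.505), Rpl10a (5.59), Irak1 (1.10), Nr4a1 (1.33), Itgax (1.72), Itga4 (2.86), Erh (1.27), Pik3ip1 (1.33), Larp1 (2.34) and Syncrip (1.02). Against run 2 it went below 1 for S100a8 (0.988), Retnlg (0.973), Ngp (0.0401), Wfdc17 (0.352), Wfdc21 (0.880), Lrg1 (0.383), Zbp1 (0.609), Gbp2 (0.742), Adpgk (0.932), Ifitm1 (0.575), Ifitm3 (0.605), Ifitm6 (0.453), Ifit1 (0.649), Usp18 (0.906), Prdx5 (0.799), Prr13 (0.646) and Lgals3 (0.887). It went above 1 for Cybb (1.15), Ceacam1 (1.99), Ccl4 (1.70), Irak1 (1.86), Nr4a1 (1.07), Itgax (1.52), Itga4 (2.16), Gm12840 (1.52), Pik3ip1 (1.02), Ppp3cb (1.515), Larp1 (3.37), Colgalt1 (1.17), Syncrip (1.93), Sgsh (1.58), Hk2 (1.07) and Cxcl3 (155.7, from a level of 0.317 CPM in run 2). Of the 7 lists past 1.5-fold by their sum, 4 and 3 changed direction against runs 1 and 2: the resistin-like and marrow-associated genes fell to 0.876 and 0.909 against runs 1 and 2, the Ifitm family to 0.540 against run 2 and the neutrophil markers to 0.927 against run 1. The B cell markers stood at 9.49 against run 1, and the erythroid markers at 0.00999 and 0.000491 against runs 1 and 2 and at 0.788 in thinned cells. Of the 40 lists short of 1.5-fold, 22 and 16 also crossed 1 against runs 1 and 2, among them secondary granule (0.269 and 0.720), antiproteases and stefins (0.907 and 0.727), type I interferon (0.650 and 0.863) and, against run 1, ribosomal proteins (1.81). The cause was not tested. Of the named genes past 1.5-fold by CPM, only Cxcl3 changed direction under any other setting run, to 1.095 (TMM, cells with 1000 UMIs or more).

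No paired analysis was possible because each condition was 1 pool, and for the same reason leaving out a replicate was not done.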
